A study of Homo sapiens with 9 samples.

Results

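Metallothioneins and the cellular zinc genes that accompany them were followed in human endothelial cells exposed to trimethylamine-N-oxide (TMAO), a metabolite that the liver forms from trimethylamine released by gut bacteria. The 8 genes were chosen by symbol from the 29740 genes of the count table: 6 metallothioneins (MT1E, MT1F, MT1G, MT1M, MT1X and MT2A), the zinc-sensing transcription factor MTF1 and the zinc exporter SLC30A1. The rule names the genes by symbol alone, though earlier results of these data were known when they were chosen, and all 8 symbols were present in the table. HMEC-1, an immortalised line of human dermal microvascular endothelium, was sequenced in 9 libraries: 3 untreated (CTRL), 3 after 24 h with 50 µM TMAO (TMAO 24H) and 3 after 48 h with 50 µM TMAO (TMAO 48H). The cells were treated in medium with reduced serum, and the study pooled controls of both times for sequencing, so that a TMAO group and CTRL also differ in time in culture. The labels give no time for a single control library. All groups come from the same line, and nothing in the labels says whether the 3 libraries of a group came from separate cultures. The paper states at least 3 independent experiments for its experimental data, without naming the sequencing libraries there. Each p-value thus measures the spread between libraries, which may be technical.

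Metallothioneins are small intracellular proteins rich in cysteine that bind zinc and copper and also react with oxidants. MTF1 binds metal response elements (MREs) in promoters when free zinc rises, and metallothionein genes and SLC30A1, whose product exports zinc across the plasma membrane, are its textbook targets. Metallothionein transcripts are therefore commonly read as a sign of the zinc, heavy metal or oxidant load of a cell, and glucocorticoids raise them too.

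The coding sequences are shown first because their likeness bears on how far reads can be assigned to single metallothioneins. In GENCODE release 29, each of the 6 metallothionein members has a coding sequence of 186 bases, with 61 codons before the stop, of which 20 (32.8%) are cysteine codons. For the 3 most abundant members the sequences are as follows, from the start codon to the stop codon, with the cysteine codons (TGC or TGT) in capitals.
MT2A: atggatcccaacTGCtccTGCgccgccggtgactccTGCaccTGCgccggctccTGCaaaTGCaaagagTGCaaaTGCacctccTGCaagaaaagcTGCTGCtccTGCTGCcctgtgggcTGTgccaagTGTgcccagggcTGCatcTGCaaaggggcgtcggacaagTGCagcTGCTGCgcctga
MT1E: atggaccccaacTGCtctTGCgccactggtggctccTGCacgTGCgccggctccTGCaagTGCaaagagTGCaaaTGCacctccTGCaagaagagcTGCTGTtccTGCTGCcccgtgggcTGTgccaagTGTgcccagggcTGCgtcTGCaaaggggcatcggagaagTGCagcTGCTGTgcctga
MT1X: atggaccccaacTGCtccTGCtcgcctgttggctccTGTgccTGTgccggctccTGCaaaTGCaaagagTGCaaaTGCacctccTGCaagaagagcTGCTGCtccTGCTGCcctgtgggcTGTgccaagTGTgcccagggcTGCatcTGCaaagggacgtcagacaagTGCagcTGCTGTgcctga
The capitals recur throughout each sequence, most of them as TGC, with 18 TGC and 2 TGT codons in MT2A, 16 and 4 in MT1E, and 15 and 5 in MT1X. Between any 2 of the 6 members, 88.7% to 95.2% of the bases were identical over the 15 pairs. MT2A and MT1E shared 92.5% of the bases, with a longest identical run of 32 bases, while MT1G and MT1X shared a run of 96 bases. Counts of a single metallothionein, above all of those with few counts, are thus uncertain where the counting could split reads between copies. Of the 54 estimated counts of the 6 members, 51 (94.4%) were whole within 0.001, beside 85.1% of all values above 0. Whether the reads lay with the right copy was not tested. The sum of all 14 measured metallothionein MT1 and MT2A genes, which does not depend on such a split, is given beside the single genes.

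The promoters are shown because MRE cores are the feature that ties these genes to MTF1. RefSeq (GRCh38.p14) gave a promoter for 4 of the 8 genes (MT1X, MT2A, MTF1 and SLC30A1). The 250 bases before the start were searched on both strands for the MRE core, written here as TGCACNC or TGCGCNC, and matches are in capitals, those on the opposite strand as their reverse complement. MT2A lies at chr16:56608334-56608583 (plus strand), MT1X at chr16:56682220-56682469 (plus strand) and SLC30A1 at chr1:211579162-211579411 (minus strand).
MT2A: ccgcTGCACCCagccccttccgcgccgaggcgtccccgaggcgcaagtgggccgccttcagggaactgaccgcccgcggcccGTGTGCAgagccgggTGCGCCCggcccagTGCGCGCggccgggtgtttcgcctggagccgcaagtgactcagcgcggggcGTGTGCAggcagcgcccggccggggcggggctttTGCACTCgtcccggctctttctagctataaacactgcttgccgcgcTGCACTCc
MT1X: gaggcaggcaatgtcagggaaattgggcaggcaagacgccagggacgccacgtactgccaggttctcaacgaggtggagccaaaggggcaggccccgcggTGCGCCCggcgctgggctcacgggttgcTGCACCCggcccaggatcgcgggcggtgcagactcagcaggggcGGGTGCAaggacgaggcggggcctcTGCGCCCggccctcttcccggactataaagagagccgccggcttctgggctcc
SLC30A1: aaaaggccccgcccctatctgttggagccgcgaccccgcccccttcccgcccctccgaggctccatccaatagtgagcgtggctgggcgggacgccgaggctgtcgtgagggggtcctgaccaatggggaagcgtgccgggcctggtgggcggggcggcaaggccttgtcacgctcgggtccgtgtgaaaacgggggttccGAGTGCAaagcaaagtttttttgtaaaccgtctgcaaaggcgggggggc
The MT2A window held 7 cores, the MT1X window 4 and the SLC30A1 window 1, and no match overlapped another. The MTF1 window held 0 matches to these letters. Of 35116 RefSeq promoters of the same length, 24.8% held at least 1 core, 0.37% at least 4 and 0.0313% at least 7. A match is a string of letters and not a measured site.

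Total estimated counts per library ran from 25205756 to 36927373. In TMAO 24H replicate 1, 6 ribosomal RNA genes took 31.5% of the counts, against 1.64% to 7.46% in the other libraries; with these genes removed before scaling, no metallothionein, MTF1 or SLC30A1 call changed. All 10 endothelial markers (PECAM1, CDH5, VWF and others) were tested, though CLDN5 had raw counts of 32 to 59 only. Their summed normalised counts were 82944 to 92416 in CTRL, 82586 to 87590 in TMAO 24H and 73465 to 79859 in TMAO 48H. Of the 10, 7 passed as lower in TMAO 48H than in CTRL, beside 5.29% of all genes tested. VWF stood higher there, at 0.09 on the log2 scale, and did not pass. Against TMAO 24H, 5 passed as lower in TMAO 48H, and VWF passed as higher (0.51, edgeR adjusted p = 0.00112), where 7.53% of all genes tested passed. The 6 fibroblast markers summed to 27810 to 32500 in CTRL, 28032 to 30381 in TMAO 24H and 17492 to 19112 in TMAO 48H, with COL1A1 and COL1A2 passing as lower in TMAO 48H. These 2 collagen genes made up most of that sum, with means of 20626 and 8983 in CTRL. Raw counts were 0 to 2 for DCN, 0 to 1 for LUM and 3 to 13 for PDGFRA, so the sum is mainly a collagen level. The 4 smooth muscle markers summed to 165 to 195 in CTRL, 173 to 210 in TMAO 24H and 243 to 292 in TMAO 48H, with ACTA2 passing as higher in TMAO 48H. At 48 h against CTRL, CNN1 stood at 0.26 and MYH11 at -0.55 on the log2 scale, and neither passed. The 4 leukocyte markers summed to 589.9 to 711 over all libraries, with CD3E at 0 in each. CD68 made up most of that sum, with a mean of 600 in CTRL, and raw counts of PTPRC were 0 to 3. The 4 epithelial markers (EPCAM, KRT5, KRT14 and CDH1) summed to 1887 to 3047 in CTRL, 1692 to 2117 in TMAO 24H and 266 to 2937 in TMAO 48H, where TMAO 48H replicate 3 stood apart from the other 8 libraries as the one at 266, with 125 normalised counts of KRT5 against 763 or more elsewhere. The same library was the lowest of all for MT2A, and values without it are given below. Their part in the results below was not tested, and in such bulk samples fewer cells of a type and less RNA per cell cannot be told apart.

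MT2A was by far the most abundant metallothionein mRNA of these cells. Per kilobase of transcript, the CTRL level was 6534 ± 469 normalised counts for MT2A (SD, n = 3), 1309 ± 153 for MT1E, 232 ± 43.0 for MT1X and 27.5 ± 6.82 for MT1F, where a normalised count is a count scaled to the mean effective library size. MTF1 had 112 ± 4.27 and SLC30A1 83.8 ± 4.26 normalised counts per kilobase in CTRL. The order was the same in all 3 groups, and the ranges of MT2A, MT1E and MT1X did not touch, whereas in TMAO 48H the levels of MTF1 (117 ± 6.89) and SLC30A1 (110 ± 8.12) lay within their spread of each other. Among 13241 tested genes with a known length, MT2A ranked 609th per kilobase, MT1E 3208th, MT1X 8235th and MT1F 11199th. MT1G (raw counts of 1 to 3 in every library) and MT1M (2 to 9) lay at or near the floor of 3 counts and did not pass the filter on low counts, which left 6 of the 8 genes for testing.

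**Figure D1:**
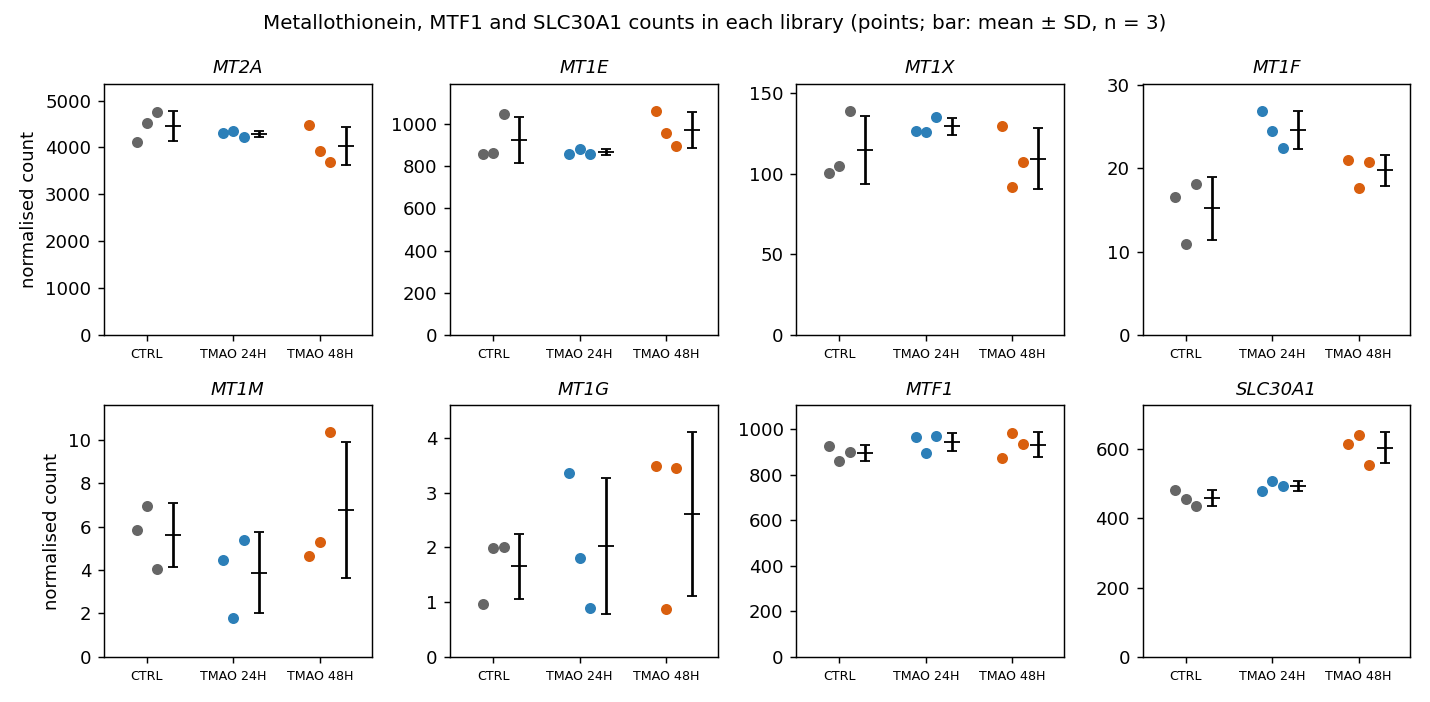
Normalised counts (y axis, linear, a scale of its own in each panel) of the 8 genes in CTRL, TMAO 24H and TMAO 48H. Each point is 1 library and the bar is the mean ± SD of 3 libraries; the 3 TMAO 48H points of SLC30A1 (555 to 641) lie above its other 6 points (436 to 507), whereas the groups of MT2A overlap.

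MT2A, which supplied 80.6% of the metallothionein counts in CTRL, did not pass in any comparison in the fit over all 9 libraries. In CTRL it had 4122, 4521 and 4756 normalised counts, in TMAO 24H 4318, 4343 and 4218, and in TMAO 48H 4482, 3926 and 3687. The 3 groups overlapped, and the 2 lowest libraries of all were TMAO 48H replicates 2 and 3. The log2 fold change against CTRL was -0.06 (SE 0.066, edgeR adjusted p = 0.923) at 24 h and -0.15 (SE 0.066, 95% interval -0.29 to -0.01, adjusted p = 0.178) at 48 h. The unadjusted edgeR p at 48 h was 0.0433, where 3802 of all 14740 genes tested had one under 0.05. Without TMAO 48H replicate 3 the log2 fold change at 48 h was -0.09 (adjusted p = 0.425). Without TMAO 48H replicate 1, the highest library of its group, MT2A passed at 48 h with a log2 fold change of -0.23 (adjusted p = 0.0205), and over the leave-one-out fits its adjusted p ran from 0.0205 to 0.425.

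MT1E, the second metallothionein of these cells, had 857, 862 and 1046 normalised counts in CTRL, 856, 882 and 856 in TMAO 24H, and 1062, 956 and 892 in TMAO 48H. CTRL overlapped both TMAO groups, and every TMAO 48H library lay above every TMAO 24H library. No comparison passed: the log2 fold change was -0.09 (SE 0.081, adjusted p = 0.890) at 24 h against CTRL, 0.07 (SE 0.081, adjusted p = 0.618) at 48 h against CTRL, and 0.17 (SE 0.081, adjusted p = 0.252) at 48 h against 24 h.

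MT1X had 100.3, 105 and 139 normalised counts in CTRL, 127, 126 and 135 in TMAO 24H, and 129, 91.6 and 107 in TMAO 48H. The groups overlapped in each comparison, and the log2 fold change was 0.17 (SE 0.16, adjusted p = 0.897) at 24 h and -0.07 (SE 0.16, adjusted p = 0.827) at 48 h against CTRL.

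MT1F was detected with raw counts of 11 to 27 only. Its normalised counts were 16.5, 10.95 and 18.1 in CTRL, 26.9, 24.5 and 22.4 in TMAO 24H, and 21.0, 17.6 and 20.7 in TMAO 48H. The TMAO 24H libraries lay above those of both other groups without overlap. Against CTRL the log2 fold change at 24 h was 0.68 (SE 0.29, 95% interval 0.07 to 1.30), with an unadjusted p of 0.0322 and an adjusted p of 0.665 by edgeR, so that it did not pass. An unadjusted p under 0.05 was found for 7.24% of all genes tested in this comparison, and groups without overlap for 14.2%.

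For the 2 genes under the filter, normalised counts over all libraries ran from 0.881 to 3.49 for MT1G and from 1.81 to 10.4 for MT1M, and the groups overlapped for both. Fitted without the filter, neither passed in any comparison (edgeR adjusted p from 0.625 to 0.997). With so few counts, the SE of these log2 fold changes was 0.58 to 0.87, so that a small change was not detectable at this depth.

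Summed over the 14 measured MT1 and MT2A genes, the metallothionein counts followed MT2A (r = 0.976 over the 9 libraries). MT2A made up 77.7% to 82.0% of the sum in each library, so that the sum is no separate check of MT2A. MT1B, MT1HL1, MT1JP and MT1IP entered it at 0 in every library. The sum was 5134, 5513 and 5986 normalised counts in CTRL, 5339, 5398 and 5251 in TMAO 24H, and 5721, 5017 and 4744 in TMAO 48H. The groups overlapped, and the TMAO 24H libraries lay closest together, with an SD of 74.2 against 427 in CTRL and 504 in TMAO 48H. The log2 fold change was -0.06 (SE 0.066, 95% interval -0.20 to 0.09, adjusted p = 0.923) at 24 h and -0.10 (SE 0.066, 95% interval -0.25 to 0.04, adjusted p = 0.349) at 48 h against CTRL. These intervals bound the change of the summed metallothionein counts at 0.871-fold to 1.06-fold at 24 h and 0.844-fold to 1.03-fold at 48 h. Without TMAO 48H replicate 3, the log2 fold change at 48 h was -0.05 (adjusted p = 0.704, where leave-one-out fits gave 0.0579 to 0.711). The 2 comparisons share the CTRL libraries.

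MTF1, the zinc sensor, had 928, 860.2 and 901 normalised counts in CTRL, 965, 896 and 971 in TMAO 24H, and 874, 984 and 937 in TMAO 48H. The groups overlapped, with a log2 fold change of 0.07 (SE 0.060, adjusted p = 0.866) at 24 h and 0.06 (SE 0.060, adjusted p = 0.610) at 48 h against CTRL. The latter became 0.00 with offsets for transcript length, and the mRNA level of MTF1 is in any case no measure of its activity.

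SLC30A1 was the one gene of the 6 tested that rose, at 48 h against CTRL, where 10.4% of all genes tested passed and 5.14% passed as higher. It had 483, 457 and 436 normalised counts in CTRL, 478, 507 and 492 in TMAO 24H, and 616, 641 and 555 in TMAO 48H. All 3 TMAO 48H libraries lay above the other 6, whereas TMAO 24H overlapped CTRL. At 48 h the log2 fold change against CTRL was 0.40 (SE 0.073, adjusted p = 0.00450), or 1.32-fold with a 95% interval of 1.18 to 1.47. At 24 h it was 0.10 (SE 0.073, adjusted p = 0.832). Tested directly, TMAO 48H exceeded TMAO 24H by 0.29 on the log2 scale (SE 0.073, adjusted p = 0.0259), or 1.23-fold with a 95% interval of 1.10 to 1.37. The rise against CTRL passed in each of the 6 fits that left out 1 library, with log2 fold changes of 0.35 to 0.45, the highest without TMAO 48H replicate 3 (adjusted p = 0.00276, against 0.0286 at most). It was below 1.4-fold, one of 2 limits of size that the study names, in each of these fits. It lay just below the other limit, 0.4 on the log2 scale, with 0.397 in the fit over all libraries. Of the 6 leave-one-out fits, 2 lay above that limit. The difference from TMAO 24H was lost in 5 of 6 such fits (adjusted p from 0.0120 to 0.122), namely on leaving out any TMAO 24H library or TMAO 48H replicate 1 or 2.

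**Figure D2:**
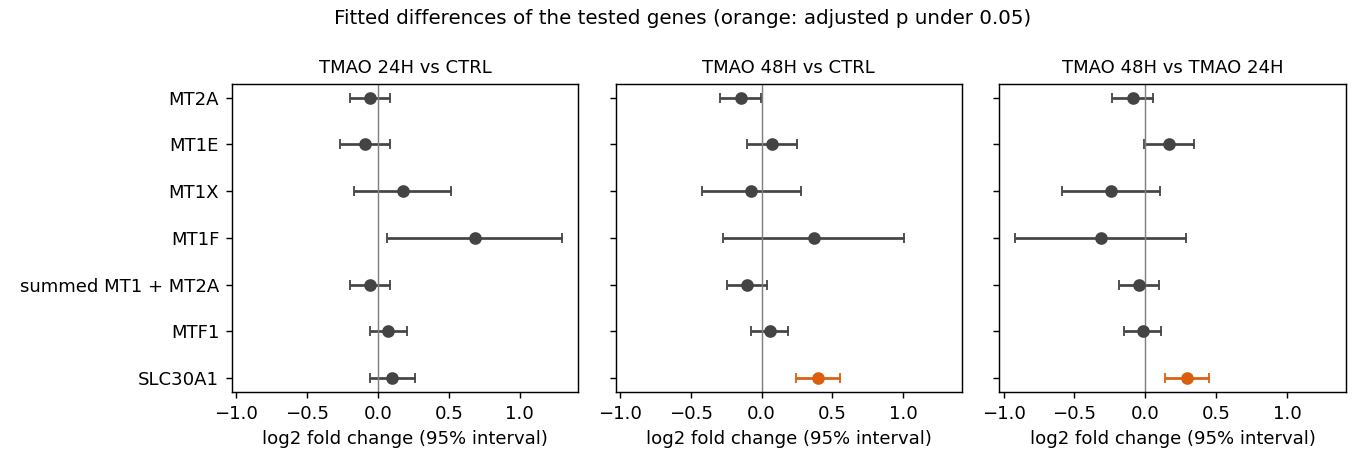
Log2 fold changes (x axis) of the 6 tested genes and of the summed metallothionein counts in the 3 comparisons, each point with its 95% interval from the fit over 9 libraries. SLC30A1 is in orange, with an adjusted p under 0.05, in both comparisons of TMAO 48H, and the intervals of MT1F are wide because of its low counts.

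Counted over the group, 0 of the 6 tested genes passed at 24 h against CTRL, by edgeR and by DESeq2, where 0.095% of all 14740 genes tested passed by edgeR. An unadjusted edgeR p under 0.05 was found for 1 of the 6 (MT1F), beside 7.24% of all genes. At 48 h against CTRL, 1 of 6 (SLC30A1, higher) passed, beside 10.4% of all genes. Besides SLC30A1, MT2A (lower) had an unadjusted edgeR p under 0.05 there, as had 3802 of all 14740 genes. At 48 h against 24 h, 1 of 6 (SLC30A1, higher) passed, beside 7.53% of all genes, and 3.77% passed as higher. The median log2 fold change of the 6 was 0.09 at 24 h and 0.06 at 48 h against CTRL, with medians of 0.00 over all genes in both. At a size of 1.4-fold or more as well, 0 of the 6 were called in any comparison, beside 0.0475%, 1.8% and 1.71% of all genes. Libraries of the compared groups did not overlap for 1 of 6 at 24 h (MT1F), 1 of 6 at 48 h (SLC30A1) and 3 of 6 between the times (MT1E, MT1F and SLC30A1), beside 14.2%, 27.8% and 27.6% of all genes. With 1 gene passing, the share of the 6 is no result about them as a group.

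SLC30A1 has a long transcript, with a median length of 5474 bases, and long transcripts as a class stood slightly higher at 48 h: the median log2 fold change against CTRL was 0.06 over the 1326 genes with the longest transcripts and 0.01 over the 1332 with the shortest. With per-library offsets for transcript length, SLC30A1 still passed at 48 h against CTRL with a log2 fold change of 0.35 (adjusted p = 0.00767), where the alternatives other than leave-one-out gave adjusted p-values from 0.000476 to 1, the last in the test against a 1.4-fold change.

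The counts of MT1E and MT2A were also set against each other within each library. MT1E had 20.6 ± 1.47 counts per 100 MT2A counts in CTRL (range 19.1 to 22.0), 20.1 ± 0.272 in TMAO 24H (19.8 to 20.3) and 24.1 ± 0.350 in TMAO 48H (23.7 to 24.4; SD, n = 3 in each). Every TMAO 48H library lay above the other 6, where single genes gave groups without overlap in 27.8% of cases against CTRL and 27.6% against TMAO 24H. No such share was computed for ratios of 2 genes, or for lying above both groups at once. No difference could be established by test: an exact two-sided permutation test gave p = 0.1 for TMAO 48H against CTRL and against TMAO 24H, the smallest p that 3 libraries against 3 allow, and p = 0.7 for TMAO 24H against CTRL. This ratio was chosen after the values of both genes were seen, it is computed within a library and so does not depend on scaling, and the copies share sequence as described above. MT2A made up 78.1% ± 0.338 of the metallothionein counts in TMAO 48H, against 80.6% ± 1.30 in CTRL and 80.6% ± 0.275 in TMAO 24H. SLC30A1 counts per 100 MTF1 counts were 51.2 ± 2.46 in CTRL, 52.3 ± 3.76 in TMAO 24H and 64.9 ± 5.62 in TMAO 48H, with the same exact p of 0.1 for TMAO 48H against each other group. MTF1 had log2 fold changes of 0.06 and -0.02 in these comparisons. The SLC30A1 ratio, which was not planned beforehand, thus restates the rise of SLC30A1 in the same libraries and is no separate result.

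**Figure D3:**
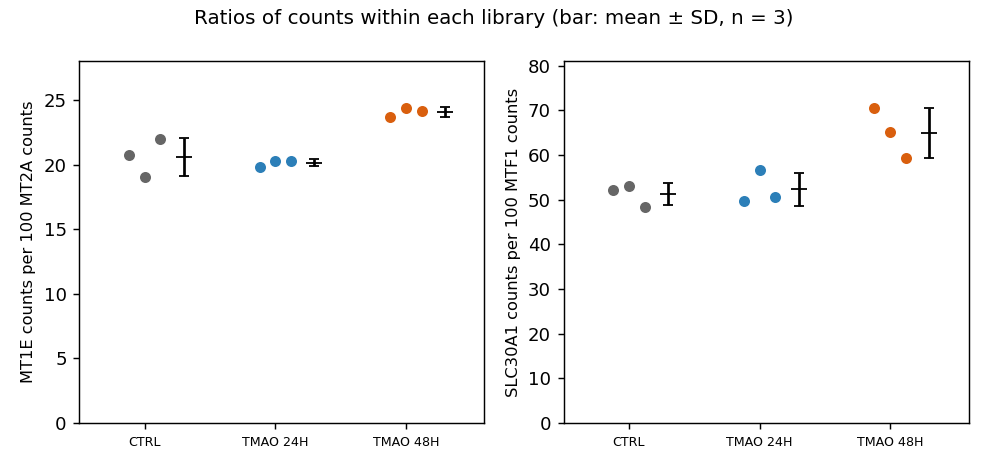
MT1E counts per 100 MT2A counts (left) and SLC30A1 counts per 100 MTF1 counts (right) in each library, with the mean ± SD of 3 libraries and linear axes from 0. In both panels the 3 TMAO 48H points lie above the other 6. The right panel restates the rise of SLC30A1, since MTF1 did not pass in any comparison.

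The other metallothionein genes were hardly expressed. Of 14 listed genes, 10 were in the table, 5 were at 0 in every library (MT1B, MT1HL1, MT1JP, MT1IP and MT4), where a count of 0 allows up to 3 counts per library, and only MT1L was tested. MT1L, annotated as a pseudogene, had raw counts of 2 to 18 and did not pass in any comparison, with a log2 fold change of 0.43 (SE 0.55, adjusted p = 0.679) at 48 h against CTRL.

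Among the other zinc exporters of the ZnT family and TMEM163, 6 of the 10 listed genes were tested, SLC30A8 and SLC30A10 were at 0 in every library, and 0 passed at 24 h. At 48 h against CTRL, 1 of 6 passed, beside 10.4% of all genes tested: SLC30A4, which moves zinc into endosomal and secretory vesicles. SLC30A4 had 312, 288 and 266 normalised counts in CTRL, 320.4, 338 and 295 in TMAO 24H, and 368, 387 and 341 in TMAO 48H. TMAO 48H did not overlap either other group, and the log2 fold change against CTRL was 0.34 (SE 0.091, 95% interval 0.14 to 0.54, adjusted p = 0.0316). That call was lost in 4 of the 6 leave-one-out fits (adjusted p from 0.0260 to 0.126), namely without CTRL replicate 2 or 3 or TMAO 48H replicate 1 or 2, and with offsets for transcript length (0.29, adjusted p = 0.0565, where the 10 alternatives gave 0.0241 to 1). The 6 tested exporters had a median log2 fold change of 0.06 at 48 h, with SLC30A6, a Golgi transporter, at 0.14 (SE 0.047, adjusted p = 0.0694).

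The zinc importers of the ZIP family showed small differences in both directions. Of 14 listed genes, 11 were tested, SLC39A12 was at 0 in every library, and 0 passed at 24 h. SLC39A13, which works in the secretory pathway and is needed for normal connective tissue, had 2243, 2326 and 2448 normalised counts in CTRL and 1961, 2020.3 and 2072 in TMAO 48H. The groups did not overlap, and it was lower at 48 h by a log2 fold change of -0.21 (SE 0.049, adjusted p = 0.0158), the only importer to pass against CTRL in this fit. Of all genes tested, 10.4% passed in this comparison, and 27.8% had groups without overlap. At 48 h against 24 h, 2 importers passed, beside 7.53% of all genes tested: SLC39A9 rose by 0.15 (SE 0.040, adjusted p = 0.0335), and SLC39A7, which releases zinc from the endoplasmic reticulum, fell by 0.14 on the log2 scale (SE 0.040, adjusted p = 0.0436). The call of SLC39A13 was lost without CTRL replicate 2 (adjusted p = 0.0509) or TMAO 48H replicate 2 (adjusted p = 0.0605), where leave-one-out fits gave 0.0196 to 0.0605. The call of SLC39A9 was lost in 6 of 6 such fits (0.0508 to 0.141) and that of SLC39A7 in 5 of 6, all but the one without TMAO 48H replicate 3 (0.0289 to 0.159). SLC39A14 and SLC39A8, plasma membrane importers of zinc, iron and manganese, stood at 0.10 (SE 0.049, adjusted p = 0.208) and 0.04 (SE 0.12, adjusted p = 0.863) at 48 h against CTRL.

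**Figure D4:**
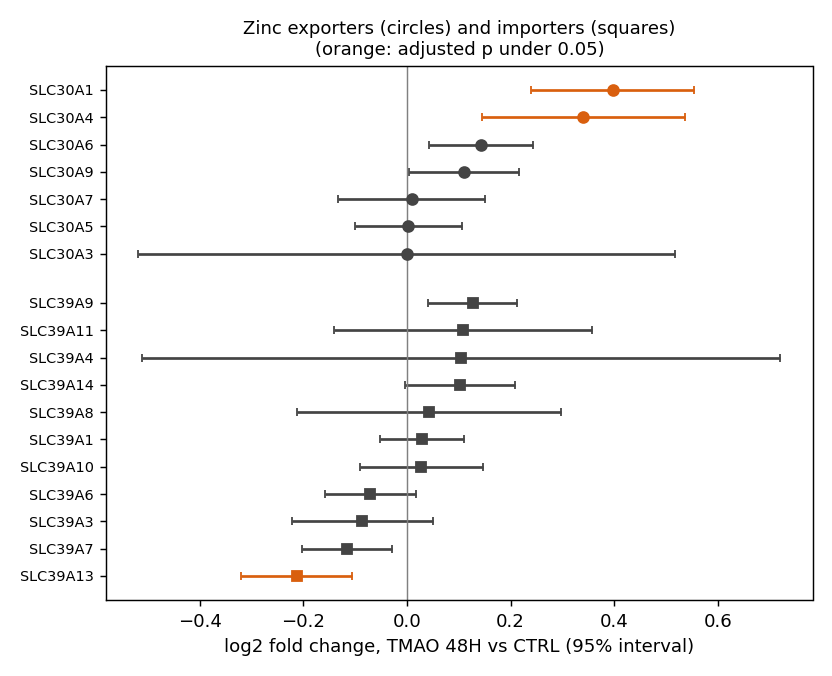
Log2 fold changes at 48 h of TMAO against CTRL (x axis) with 95% intervals for the 7 tested zinc exporters, SLC30A1 included (circles), and the 11 tested importers (squares), ordered by size. SLC30A1 and SLC30A4 (higher) and SLC39A13 (lower) are in orange, with an adjusted p under 0.05.

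Copper handling genes, whose metal metallothioneins also bind, gave no call: 0 of 11 passed in any of the 3 comparisons by edgeR and by DESeq2, with 0, 0 and 1 at an unadjusted p under 0.05 at 24 h, at 48 h and between the times. Their log2 fold changes at 48 h against CTRL ran from -0.18 to 0.19. Of all genes tested, 0.095%, 10.4% and 7.53% passed by edgeR at 24 h, at 48 h and between the times. An unadjusted edgeR p under 0.05 was found for 1067, 3802 and 3256 of all 14740 genes, in the same order.

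Of 14 genes of the metal, heat shock and oxidant stress response, 0 passed at 24 h and 2 at 48 h against CTRL, both higher. Of all genes tested, 0.095% passed at 24 h, and at 48 h 10.4% passed, 5.14% as higher. At 48 h against CTRL, 9 of the 14 stood lower, 4 of them at an unadjusted edgeR p under 0.05, beside 1863 of all 14740 genes. At 48 h against 24 h, 2 of the 14 passed as higher and 1 as lower. Of all genes tested, 7.53% passed in that comparison, 3.77% as higher. SLC7A11, the cystine importer of glutathione synthesis, had 697, 708 and 783 normalised counts in CTRL, 711, 692 and 706 in TMAO 24H, and 864, 1006 and 999 in TMAO 48H. Its TMAO 48H libraries lay above all others, with a log2 fold change of 0.39 (SE 0.069, adjusted p = 0.00376) against CTRL and 0.44 (SE 0.069, adjusted p = 0.00141) against TMAO 24H. TXNRD1, a thioredoxin reductase, rose by 0.18 (SE 0.043, adjusted p = 0.0200) at 48 h against CTRL, a call lost without TMAO 48H replicate 2 (adjusted p = 0.0737, where leave-one-out fits gave 0.0302 to 0.0737). Against TMAO 24H it rose by 0.25 (SE 0.043, adjusted p = 0.00269), and HSPH1, a heat shock chaperone, fell by 0.18 on the log2 scale (SE 0.045, adjusted p = 0.0250), a call lost in 5 of 6 leave-one-out fits, all but the one without TMAO 48H replicate 3. HMOX1, the haem oxygenase that heavy metals and oxidants induce, had a log2 fold change of 0.07 (SE 0.075, adjusted p = 0.605) at 48 h, and the heat shock gene HSPA1A one of -0.12 (SE 0.045, adjusted p = 0.1002). The median of the 14 genes was -0.04 at 48 h.

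Glucocorticoid-induced genes were listed because the metallothioneins respond to the same hormone. Of 11 listed genes, 10 were tested. At 48 h against CTRL, 2 passed as higher and 1 as lower, beside 5.14% and 5.29% of all genes tested. Between the times, 2 passed as higher and 1 as lower, where 7.53% of all genes tested passed. At 24 h against CTRL, 1 passed, as lower, beside 0.095% of all genes tested. That gene, DUSP1, a phosphatase of mitogen-activated protein kinases that many stimuli besides glucocorticoids induce, had 1899, 2039 and 1821 normalised counts in CTRL, 1320, 1140.2 and 1340.2 in TMAO 24H, and 2882, 2679 and 3349 in TMAO 48H. The 3 groups did not overlap, and the log2 fold change was -0.60 (SE 0.080, adjusted p = 0.0106) at 24 h and 0.63 (SE 0.080, adjusted p = 0.000417) at 48 h against CTRL. KLF9 also rose at 48 h (0.22, SE 0.059, adjusted p = 0.0301) and CRISPLD2 fell by 0.43 on the log2 scale (SE 0.097, adjusted p = 0.0142), whereas FKBP5 and TSC22D3 had 0.06 (SE 0.046, adjusted p = 0.461) and -0.13 (SE 0.089, adjusted p = 0.412). Between the TMAO times, DUSP1 differed by 1.23 (SE 0.081, adjusted p = 2.23e-06), SGK1 by 0.57 (SE 0.075, adjusted p = 0.000333) and CRISPLD2 by -0.44 (SE 0.097, adjusted p = 0.0131). The fall of DUSP1 at 24 h was lost without TMAO 24H replicate 2 or CTRL replicate 1 or 2 (leave-one-out adjusted p from 0.0199 to 0.103). At 48 h against CTRL, the call of KLF9 was lost without CTRL replicate 1 or 2 or TMAO 48H replicate 2 (0.0274 to 0.123) and that of CRISPLD2 without CTRL replicate 1 or 2 (0.00281 to 0.0641), and between the times that of CRISPLD2 without TMAO 24H replicate 1 (0.0297 to 0.0507).

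The metallothionein genes of chromosome 16 stand in 1 cluster, and 5 of the 10 genes annotated nearest to it, 5 on each side, were tested. NUDT21, a cleavage factor of mRNA 3′ end processing, rose at 48 h by 0.19 (SE 0.039, adjusted p = 0.00704) from 9675 ± 90.5 to 11064 ± 312 normalised counts. The other 4 flanking genes tested did not pass in any comparison, and 10.4% of all genes tested passed at 48 h against CTRL.

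Over the 9 libraries, the genes outside these lists whose log2 level followed the summed metallothionein counts most closely were MRPL11 (r = 0.979), C19orf43 (r = 0.971), DESI1 (r = 0.969), GADD45GIP1 (r = 0.969) and ISCA2 (r = 0.967), out of 12251 genes compared. These r values describe 9 libraries that share group, depth and transcript length effects, and the median r with the sum was 0.07 over the 1332 genes with the shortest transcripts and -0.36 over the 1326 with the longest. None of the 5 passed in any comparison, with log2 fold changes of -0.09 to -0.08 at 48 h against CTRL. The 4 genes whose level followed SLC30A1 most closely, by the same measure applied after its rise was seen, were KIF11 (r = 0.989), ARHGAP11A (r = 0.989), DIAPH3 (r = 0.982) and MSRB3 (r = 0.973).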

How the data were processed

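RNA of HMEC-1 cells was sequenced by the authors as paired reads and counted with the nf-core RNAseq pipeline (version 3.6), with Trim Galore in the submitters' processing notes; the genome build, annotation, quantifier and strand setting are not given in the sources used here. The authors deposited estimated counts per gene symbol, made by this pipeline and not normalised. Of the values above 0, 85.1% were whole within 0.001, and all were rounded. Groups were taken from the labels. The main test was edgeR 4.0.16 (R 4.3.3) with its expression filter (14740 of 29740 genes tested), TMM scaling and the quasi-likelihood test on all 9 libraries, each p adjusted by Benjamini-Hochberg over all genes tested; passing means an adjusted p under 0.05. The study used DESeq2 and also asked for a 1.4-fold change, given in places as 0.4 on the log2 scale; DESeq2 1.42.0 served as an alternative. Normalised counts are counts over effective library size times its mean. Lengths are medians over the protein-coding transcripts of GENCODE release 29, found for 89.8% of tested genes. Intervals cover the spread between libraries. The members and lists were chosen with earlier results of these data known. The text names the 8 members, up to 5 list genes per list and comparison that passed, genes at 0, flanking genes that passed and the 5 genes closest in profile to the metallothionein sum; HMOX1, HSPA1A, FKBP5, TSC22D3, SLC30A6, SLC39A8, SLC39A14 and the genes closest to SLC30A1 were added after their values were seen.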

Additional observations from a re-analysis of the deposited data

Results flagged for a closer look

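SLC30A1 was singled out because its level differed between the times of TMAO treatment by a test of that difference itself: TMAO 48H exceeded TMAO 24H by a log2 fold change of 0.29 (SE 0.073, edgeR adjusted p = 0.0259), with all 3 TMAO 48H libraries above all 3 TMAO 24H libraries. Groups without overlap in this comparison were found for 27.6% of all genes tested. The call was lost in 5 of the 6 fits that left out 1 library (edgeR adjusted p from 0.0120 to 0.122). No group reached 4 libraries, so that no test for single deviating libraries was made.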

How the results depend on the processing

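The call of SLC30A1 at 48 h against CTRL held under DESeq2, RLE scaling, no filter, a stricter filter, a fit of only the 2 groups, the older quasi-likelihood fit, removal of ribosomal RNA genes, transcript length offsets and the replicate block, and in each leave-one-out fit. In the test against a 1.4-fold change, 0 members passed at 48 h against CTRL and 0 at 48 h against 24 h. Leaving out each library in turn gave 0 members passing at 24 h, 1 to 2 at 48 h and 0 to 1 between the times; the summed metallothionein counts ranged from -0.11 to 0.0043 at 24 h (above 0 without CTRL replicate 3) and from -0.13 to 0.011 at 48 h against 24 h (above 0 without TMAO 48H replicate 3). DESeq2 called 2 importers and 4 stress genes at 48 h against CTRL and 2 glucocorticoid-induced genes at 24 h; the cause was not tested. Among the list genes, the fit of only the 2 groups lost the calls of SLC30A4, TXNRD1 and KLF9 at 48 h and of SLC39A9 between the times, no filter lost SLC39A7 and SLC39A9 between the times, length offsets lost SLC30A4 and KLF9 at 48 h, and the test against a 1.4-fold change kept only DUSP1 between the times. Differences of single members that changed sign, none of them past the threshold, were MTF1 at 48 h against CTRL with length offsets (-0.00047); MTF1 at 48 h against 24 h, which ran from -0.060 to 0.025 over the leave-one-out fits (above 0 without TMAO 24H replicate 3, 0.0023, or TMAO 48H replicate 1); MT1E at 24 h against CTRL, from -0.14 to 0.011 (above 0 without CTRL replicate 3); and MT1X at 48 h against CTRL, from -0.21 to 0.087 (above 0 without CTRL replicate 3 or TMAO 48H replicate 2, 0.044).

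Over all genes, 14, 1537 and 1110 passed at 24 h, 48 h and between the times in the main test, 57, 1713 and 1232 by DESeq2, 14, 1278 and 959 with no filter, 22, 981 and 1063 with only the 2 groups fitted, and 0, 23 and 50 against a 1.4-fold change. Same-numbered libraries did not deviate together (r from -0.21 to 0.07 over 9 pairs, beside -0.13 to 0.20 over 18 differently numbered pairs), and the main test used no pairing. This correlation over all genes tested was not weighted for low counts or library effects, so it cannot exclude that libraries of the same number share a culture or batch. With the replicate block, 1, 948 and 731 genes passed, 0, 1 and 1 members passed, and SLC30A1 kept a log2 fold change of 0.40 (adjusted p = 0.0127, against 0.000476 to 1 over all alternatives) at 48 h against CTRL; the block lost the calls of DUSP1 at 24 h, TXNRD1 and KLF9 at 48 h, and SLC39A7, SLC39A9 and HSPH1 between the times. Counts under 30 limit MT1F, and counts under 10 MT1G and MT1M.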
